A study of Mus musculus with 13 samples.

Results

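Eph receptors and their membrane-bound ligands, the ephrins, were followed through the mesodermal and endothelial stages of blood formation in WT, Lmo2-/- and Tal1-/- cells. The set holds 10 genes, chosen by name: the B-class ephrins Efnb1 and Efnb2, the B-class receptors Ephb2, Ephb3 and Ephb4, the A-class receptors Epha1, Epha2 and Epha4, and the A-class ephrins Efna1 and Efna5. They are 10 of the 45250 gene rows deposited and 10 of the 22 genes of the family that were looked up, and all 10 were among the 13802 genes tested. The choice was made with earlier results of these data known. Counts and medians of the 10 beside those of all genes are therefore a description. Mouse ES cells of 3 genotypes, 1 line each, were differentiated as embryoid bodies, from which Flk-1+ cells (haemangioblast-enriched mesoderm carrying the VEGF receptor Flk-1) were isolated magnetically. WT and Lmo2-/- Flk-1+ cells were also cultured further in blast medium with VEGF and IL-6, and haemogenic endothelium 1 (HE1; Tie2+, Kit+, CD41-) was sorted from it. Flk-1+ cells of the 3 genotypes gave 3 libraries each and HE1 of WT and Lmo2-/- gave 2 each, which makes 5 groups and 13 libraries. Lmo2 encodes the adaptor, and Tal1 a DNA-binding partner, of a transcription complex required for blood formation. Because each genotype is 1 ES line, genotype and line cannot be told apart. Nor can stage be told apart from the culture and the way the cells were isolated.

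Each value is an FPKM, a count of sequenced fragments corrected for transcript length and library size, so levels of different genes may be set side by side. Differences are given as differences of log2(FPKM + 1), which understate changes of low genes, with the SE of limma's moderated test fitted across all 13 libraries and p adjusted by Benjamini-Hochberg over all 13802 genes. A gene was called when its adjusted p was below 0.05 and the mean FPKM of either group exceeded 10. Between 11861 and 15641 genes were above 0 in 12 libraries, and 9694 in replicate 1 of Lmo2-/- HE1. There, 1 fragment was worth 3.77 times the median of the other 12 libraries (0.597 to 1.57 in each of these), and 183 of the 4062 genes whose median FPKM exceeded 10 stood at 0, against 55 at most elsewhere. The HE1 calls, balances and shares that use this library are also given without it. Lmo2 itself was 22.9, 30.8 and 21.6 FPKM in WT and 2.63, 6.48 and 2.17 FPKM in Lmo2-/- Flk-1+ cells. In HE1 it was 4.30 and 20.6 FPKM in the libraries labelled WT and 6.42 and 0 FPKM in those labelled Lmo2-/-, which overlap, so in HE1 the level of Lmo2 does not separate the labels. Tal1 was 2.74 to 3.41 FPKM in Tal1-/- Flk-1+ cells and 22.0 to 37.4 FPKM in WT. All 8 endothelial markers (Tek, Kit, Pecam1, Cdh5, Esam, Tie1, Eng and Cd34) were above 0 in HE1, where their summed FPKM was 912 to 955 in WT and 839 to 1020 in Lmo2-/-, against 9.5 to 27.1 in Flk-1+ cells.

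Eph receptors are receptor tyrosine kinases that bind ephrins on neighbouring cells, and both partners signal into their own cell, mostly to the cytoskeleton, so that cells adhere to or move away from each other. A-class ephrins are held by a lipid anchor and B-class ephrins span the membrane with a tail that carries signals of its own. In the developing vasculature ephrin-B2 marks arteries and its receptor EphB4 marks veins, and mice that lack either fail to remodel their vessels.

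The sequences upstream of 5 genes are given here, those of Efnb2 and Ephb4 because their balance is described next, and those of Efnb1, Ephb2 and Ephb3 because they rose together in Lmo2-/- HE1. All 10 genes had an entry in the RefSeq promoter table of build GRCm38.p6, with 11 start sites in all. Each stretch runs 5′ to 3′ on the gene's strand and covers the 250 bases before the RefSeq start, or for Ephb3 the 210 of them that lie before the gene's start in GENCODE M21. Capitals mark a match to any of 5 motifs searched on both strands.
Efnb2, chr8:8661243-8661492, minus strand: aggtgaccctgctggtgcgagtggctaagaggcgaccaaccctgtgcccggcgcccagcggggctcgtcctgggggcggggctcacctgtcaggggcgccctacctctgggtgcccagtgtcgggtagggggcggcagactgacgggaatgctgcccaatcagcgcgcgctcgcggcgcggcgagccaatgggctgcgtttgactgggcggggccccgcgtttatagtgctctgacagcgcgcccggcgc
Ephb4, chr5:137349859-137350108, plus strand: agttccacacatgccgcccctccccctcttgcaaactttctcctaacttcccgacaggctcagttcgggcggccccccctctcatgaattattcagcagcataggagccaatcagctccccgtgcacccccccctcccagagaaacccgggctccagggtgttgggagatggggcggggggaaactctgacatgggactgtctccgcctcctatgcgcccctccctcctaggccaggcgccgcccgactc
Efnb1, chrX:99135811-99136060, plus strand: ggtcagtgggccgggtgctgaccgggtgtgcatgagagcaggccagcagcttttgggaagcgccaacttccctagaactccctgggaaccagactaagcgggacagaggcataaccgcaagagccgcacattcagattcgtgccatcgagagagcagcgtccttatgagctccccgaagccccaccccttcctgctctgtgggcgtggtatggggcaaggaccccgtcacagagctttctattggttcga
Ephb2, chr4:136836013-136836262, minus strand: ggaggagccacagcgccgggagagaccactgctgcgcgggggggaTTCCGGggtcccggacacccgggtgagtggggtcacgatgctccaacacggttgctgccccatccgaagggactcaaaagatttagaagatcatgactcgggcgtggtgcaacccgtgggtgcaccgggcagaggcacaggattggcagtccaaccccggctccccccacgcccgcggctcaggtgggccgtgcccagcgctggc
Ephb3, chr16:21204545-21204754, plus strand: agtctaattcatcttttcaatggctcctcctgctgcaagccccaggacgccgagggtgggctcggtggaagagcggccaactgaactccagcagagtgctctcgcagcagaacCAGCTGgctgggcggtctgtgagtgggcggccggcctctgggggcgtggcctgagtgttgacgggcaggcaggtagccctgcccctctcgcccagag
The motifs were GATAA (GATA factors), CAGATG and CAGCTG (E-boxes), CCGGAA (ETS factors) and GTGGGAA (RBPJ), and none of these overlap. GATAA was in 0 of the 11 windows and in 22.6% of 32851 windows of the same length in the table. CAGATG was in the window of Epha1 alone (14.4% of all windows), CAGCTG in that of Ephb3 (13%), and CCGGAA, on the reverse strand, in that of Ephb2 (12%). GTGGGAA was in 0 of the 11 windows (5.42% of all). The windows of Efnb2 and Ephb4 hold none of the 5 motifs. The GC content of the 11 windows was 54.4 to 74.8%, against a median of 52.4% over all windows. A match describes letters only and is not a bound site.

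Efnb2, the arterial ligand, was highest in WT HE1 and lowest in Tal1-/- Flk-1+ cells. It stood at 32.0, 24.3 and 22.3 FPKM in WT Flk-1+ cells (26.2 ± 5.11, SD, n = 3). Lmo2-/- Flk-1+ cells had 13.9, 16.1 and 19.7 FPKM, all below the lowest WT library. Tal1-/- Flk-1+ cells had 10.9, 4.49 and 7.01 FPKM, all below the lowest Lmo2-/- library. In WT HE1 it was 61.3 and 56.2 FPKM, and in Lmo2-/- HE1 47.9 and 26.3 FPKM, again without overlap. In order of mean level the groups ran from WT HE1 over Lmo2-/- HE1, WT Flk-1+ and Lmo2-/- Flk-1+ to Tal1-/- Flk-1+, and of these neighbours Lmo2-/- HE1 and WT Flk-1+ cells overlapped.

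Ephb4, the venous receptor, separated by stage and not by genotype. Its libraries were at 30.3, 13.5 and 9.09 FPKM in WT Flk-1+ cells, at 11.4, 24.9 and 21.2 FPKM in Lmo2-/- Flk-1+ cells and at 11.8, 16.5 and 12.3 FPKM in Tal1-/- Flk-1+ cells. These 3 groups overlap throughout. HE1 had 59.6 and 61.3 FPKM in WT and 47.1 and 109 FPKM in Lmo2-/-, all above every Flk-1+ library, and the Lmo2-/- pair lies on either side of the WT pair. The deposited locus of Ephb4 is merged with the neighbouring Zan, which was at most 0.0139 FPKM in any library, and the pseudogene Rpl36-ps9. Ephb4 lies at chr5:137350109-137378669 and Efnb2 at chr8:8617434-8661242 (GRCm38, GENCODE M21).

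**Figure D1:**
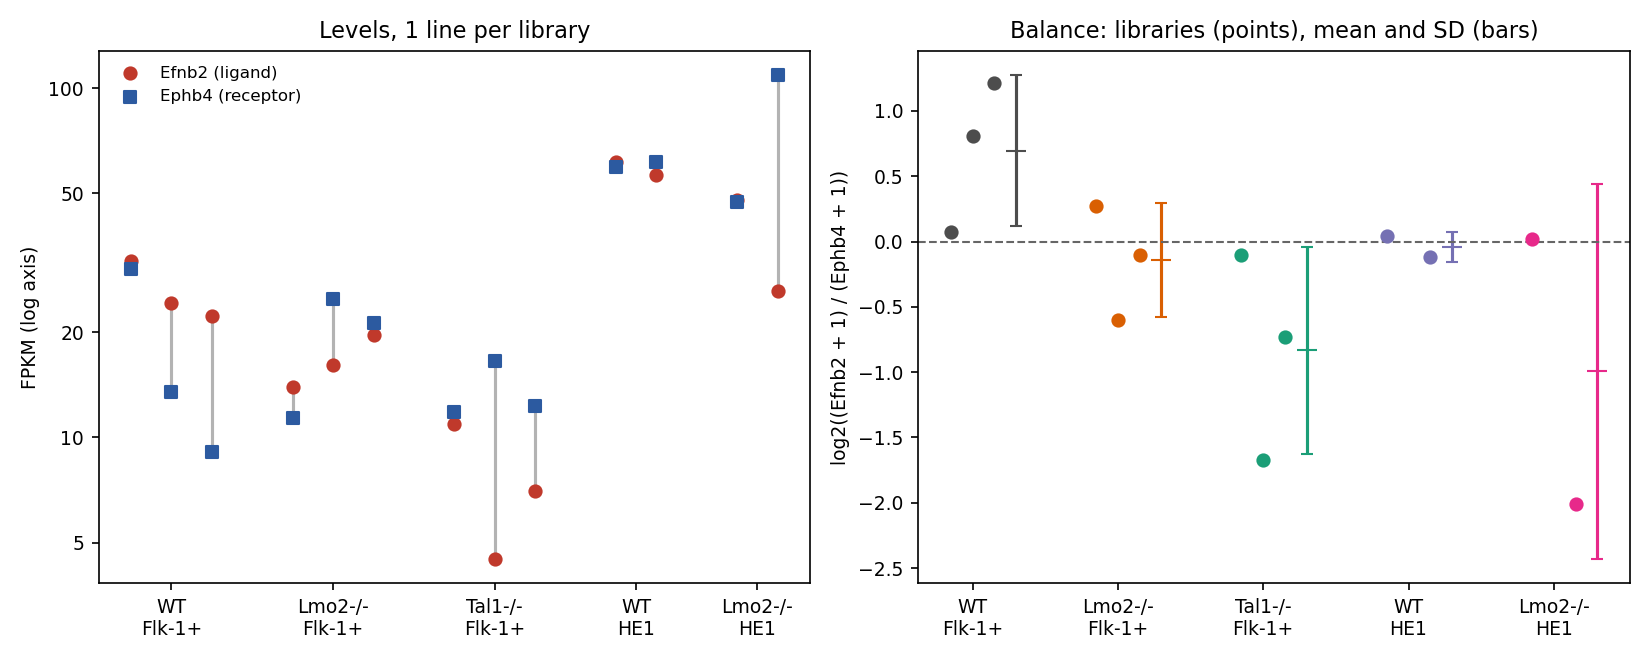
Left, FPKM (log axis) of Efnb2 (circles) and Ephb4 (squares) in each of the 13 libraries, joined by a line per library; right, the balance log2((Efnb2 + 1)/(Ephb4 + 1)) per library (points) with the mean and SD of each group (bars). All Tal1-/- Flk-1+ libraries lie below 0 and all WT Flk-1+ libraries above it, and the pair of Lmo2-/- HE1 libraries stand at 0.02 and -2.01.

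The balance of the pair, log2((Efnb2 + 1)/(Ephb4 + 1)), does not depend on library size except through the 1 that is added. In WT Flk-1+ cells the balance was above 0 in every library, at 0.07, 0.81 and 1.21 (mean 0.70 ± 0.57, SD, n = 3), the first of them near even. In Lmo2-/- Flk-1+ cells the values were 0.27, -0.60 and -0.10 (mean -0.14 ± 0.44, n = 3), on both sides of an even balance. In Tal1-/- Flk-1+ cells it was below 0 in every library, at -0.10, -1.67 and -0.73 (mean -0.83 ± 0.79, n = 3), the first again near even. HE1 was near even in WT, at 0.04 and -0.12 (mean -0.04 ± 0.12, n = 2), and at 0.02 and -2.01 in Lmo2-/- (mean -0.99 ± 1.44, n = 2).

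From WT to Tal1-/- Flk-1+ cells the balance fell by 1.53 without overlap of the libraries, at an exact permutation p of 0.1, two-sided, the smallest that 3 against 3 libraries allow. For Lmo2-/- against WT Flk-1+ cells the difference was -0.84 (exact permutation p = 0.2) and that from Lmo2-/- to Tal1-/- was -0.69 (exact permutation p = 0.2), both with overlap. With single libraries left out these ran from -1.15 (without WT replicate 0) to -0.58 (without WT replicate 2) and from -1.06 (without Tal1-/- replicate 0) to -0.27 (without Tal1-/- replicate 1). Along the WT stages the difference, HE1 less Flk-1+, was -0.74 with no overlap (exact permutation p = 0.2; smallest possible 0.1), and -0.48 without WT Flk-1+ replicate 2. Between WT and Lmo2-/- HE1 it was -0.95 (exact permutation p = 0.667; smallest possible 0.333), and 0.07 without replicate 1 of Lmo2-/- HE1. From Lmo2-/- Flk-1+ cells to Lmo2-/- HE1 it was -0.85 (exact permutation p = 0.5), and 0.17 without that library, so the direction of both rests on 1 library. The difference of the genotype effects at the 2 stages was -0.11, with no test.

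Within its own class, Efnb2 took a share of ephrin transcripts that differed between the groups without overlap at the Flk-1+ stage. Summed over all 8 ephrin genes, it made up 43.8, 39.3 and 46.0% of the ephrin FPKM in WT Flk-1+ cells, 26.2, 19.9 and 26.5% in Lmo2-/- and 15, 7.35 and 15.4% in Tal1-/-. The difference from WT was -18.8 percentage points in Lmo2-/- and -30.5 in Tal1-/-, and that between Lmo2-/- and Tal1-/- was -11.6 (exact permutation p = 0.1 for each, the smallest possible). In HE1 the share was 72.8 and 85.8% in WT and 45.3 and 12.8% in Lmo2-/-, a difference of -50.3 points (exact permutation p = 0.333, the smallest possible), or -34.0 points without replicate 1 of Lmo2-/-. The WT rise from Flk-1+ cells to HE1 was 36.3 points (exact permutation p = 0.1, the smallest possible). Lmo2-/- Flk-1+ cells and HE1 overlapped, with a difference of 4.82 points. It was 21.1 points without replicate 1 and -11.4 points without replicate 0 of Lmo2-/- HE1. These HE1 libraries lay on either side of the Lmo2-/- Flk-1+ libraries, so the direction of this difference is not settled. Ephb4 made up 42.4, 38.8 and 31.0% of the summed Eph receptor FPKM in WT Flk-1+ cells, 28.9, 33.9 and 35.7% in Lmo2-/- and 18.9, 30.7 and 32.3% in Tal1-/-, with overlap. In HE1 it held 60.9 and 74.2% in WT and 36.5 and 32.9% in Lmo2-/-, a difference of -32.9 points (exact permutation p = 0.333, the smallest possible), or -31.1 points without replicate 1 of Lmo2-/-. The FPKM of Ephb4 itself overlapped between these groups. The receptor sum was 97.9 and 82.7 FPKM in WT HE1 and 129 and 331 FPKM in Lmo2-/- HE1. These 12 comparisons of shares were set after the data were seen, their p-values are unadjusted, and a share also moves when the other genes of the class do.

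**Figure D2:**
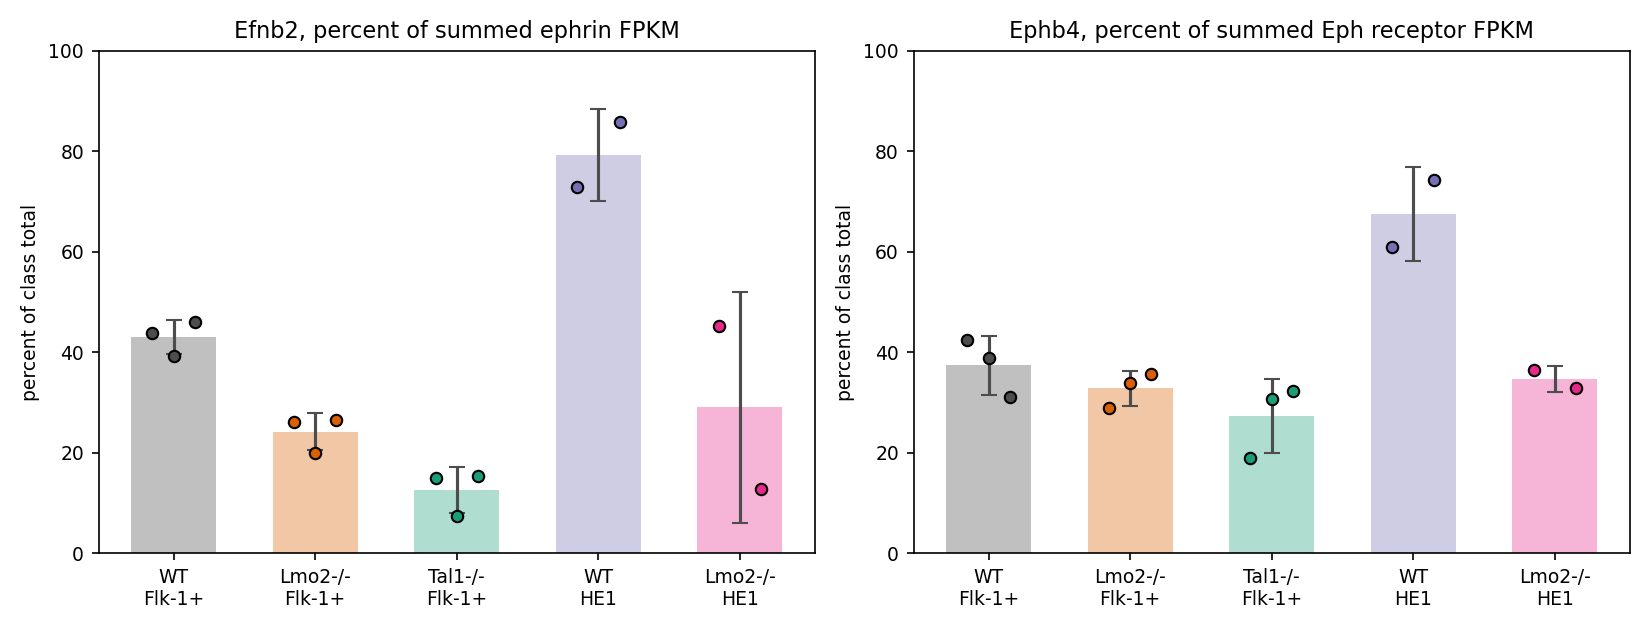
Share of Efnb2 in the summed FPKM of all ephrins (left) and of Ephb4 in that of all Eph receptors (right), in percent; points are libraries, bars start at 0 and show the group mean with its SD. The Efnb2 share descends from 39.3 to 46.0% in WT Flk-1+ cells to 7.35 to 15.4% in Tal1-/- Flk-1+ cells, and both shares are higher in WT HE1 than in Lmo2-/- HE1.

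The comparison of Lmo2-/- with WT Flk-1+ cells asks what loss of LMO2 changes at the haemangioblast stage. The libraries did not overlap for Ephb2 and Efna1, which were higher in Lmo2-/-, and for Efnb2, which was lower. Of the 10 genes 0 were called, as were 0.0% of all genes tested, while 307 genes (2.22%) had an unadjusted limma p below 0.05. The targeted gene Lmo2 was not called either (log2 difference -2.55, SE 0.85), so 0 calls do not show that nothing changed. With another test, the paper reported differentially expressed genes at this stage. Those 3 genes without overlap compare with 8.21% of all genes tested (3.99% higher and 4.22% lower). The median log2 difference of the 10 was 0.41, against -0.01 for all genes tested. Ephb2, a receptor of the B-class ephrins, was 3.15, 1.86 and 3.80 FPKM in WT and 4.17, 7.70 and 7.04 FPKM in Lmo2-/- (log2 difference 0.89, SE 0.50). Efna1, an ephrin induced in endothelium by inflammatory signals, was 2.15, 3.06 and 2.17 FPKM in WT and held closely at 5.64, 5.77 and 5.93 FPKM in Lmo2-/- (0.98, SE 0.50). For Efnb2 the log2 difference was -0.63 (SE 0.36). The limma adjusted p of all 3 was 1.0 and the exact permutation p 0.1, the smallest possible.

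In the comparison of Tal1-/- with WT Flk-1+ cells, Efnb2 had the largest of the 10 differences in size. Its log2 difference was -1.74 (SE 0.36; limma adjusted p = 0.163; exact permutation p = 0.1, the smallest possible), which did not pass. Ephb3, Ephb2 and Efna1 were higher in every Tal1-/- library than in any WT library. Ephb3, another receptor of B-class ephrins, was 4.47, 3.75 and 2.29 FPKM in WT and 14.1, 11.8 and 5.26 FPKM in Tal1-/- (1.27, SE 0.64). Ephb2 reached 7.92, 4.13 and 6.13 FPKM in Tal1-/- (0.84, SE 0.50), and Efna1 8.43, 10.04 and 4.29 FPKM (1.26, SE 0.50). Their limma adjusted p ran from 0.755 to 0.905. Again 0 of the 10 and 0.0% of all genes tested were called, 843 genes (6.11%) had an unadjusted limma p below 0.05, and 12.6% of all genes did not overlap (5.25% higher and 7.40% lower), against 4 of the 10. Tal1, the targeted gene, was not called here either (-2.84, SE 0.47, limma adjusted p = 0.101). Both comparisons share the WT libraries. Between Lmo2-/- and Tal1-/- Flk-1+ cells 0 of the 10 were called (0.0145% of all genes; 822 genes, 5.96%, with an unadjusted limma p below 0.05), and 2 did not overlap, both lower in Tal1-/- (13.3% of all genes, 6.59% higher and 6.66% lower). They were Efnb2 (-1.11, SE 0.36; limma adjusted p = 0.662) and Epha4 (-0.80, SE 0.47; limma adjusted p = 0.900).

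Marker lists of the isolated cells and of other cells were summed in the same libraries. For the fibroblast list (Col1a1, Col1a2, Col3a1, Thy1 and Postn) the summed FPKM was 6.5 to 14.3 in WT Flk-1+ cells, with Col3a1 and Postn at 0 throughout, 20.8 to 28.8 in Lmo2-/-, with Postn at 0, and 22.1 to 35.2 in Tal1-/-, with all 5 above 0 in at least 1 library. The haemangioblast list (Kdr, Etv2, Tal1, Lmo2, Mesp1 and T, above 0 in every Flk-1+ library but for Lmo2 in 1 of Tal1-/-) summed to 213 to 450 FPKM in WT, 143 to 260 FPKM in Lmo2-/- and 111 to 133 FPKM in Tal1-/-, and includes both targeted genes. The haematopoietic list (Itga2b, Gata1, Runx1, Spi1, Hbb-bh1 and Ptprc) summed to 12.6 to 20.6 FPKM in WT, 4.0 to 8.13 FPKM in Lmo2-/- and 4.17 to 10.2 FPKM in Tal1-/-. Hbb-bh1 and Ptprc were at 0 in every Flk-1+ library, Spi1 in every one of Lmo2-/- and Gata1 in every one of Tal1-/-. The pluripotency list (Pou5f1, Nanog, Zfp42 and Sox2, all above 0 in at least 1 library of each group) summed to 11.9 to 15.2 FPKM in WT, 2.77 to 7.3 FPKM in Lmo2-/- and 6.89 to 23.2 FPKM in Tal1-/-. The smooth muscle list (Acta2, Tagln, Cnn1 and Myh11, likewise) was low throughout, at 3.39 to 9.02 FPKM in WT, 2.8 to 7.54 FPKM in Lmo2-/- and 0.502 to 3.11 FPKM in Tal1-/-. The cardiac list (Nkx2-5, Tnnt2, Myl7, Myh6 and Actc1) summed to 12.2 to 15.7 FPKM in WT and 15.7 to 25.7 FPKM in Lmo2-/-. In Tal1-/- it summed to 8.29 to 17.0 FPKM, with Nkx2-5 and Myh6 at 0. The epithelial and endodermal list, given below for HE1, overlapped at 30.2 to 46.1 FPKM in WT, 37.0 to 55.1 FPKM in Lmo2-/- and 20.8 to 38.9 FPKM in Tal1-/-, with Foxa2 at 0 in Tal1-/-. So did the paraxial mesoderm and neural crest list (Meox1, Tbx6, Pax3, Sox10 and Foxd3). It summed to 2.28 to 6.68, 1.25 to 4.46 and 2.85 to 7.82 FPKM in the same order, with Foxd3 at 0 throughout. The part of these lists in the differences above was not tested. Flk-1+ cells were isolated magnetically, and how many other cells remained was not assessed here. In bulk RNA, fewer cells of a type and less RNA per cell cannot be told apart.

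The remaining members overlapped between WT and each mutant at the Flk-1+ stage. Efnb1, the B-class ephrin encoded on the X chromosome, was 5.04, 11.2 and 5.59 FPKM in WT, 8.79, 12.4 and 14.3 FPKM in Lmo2-/- and 19.0, 11.4 and 8.60 FPKM in Tal1-/-. Epha4, a receptor able to bind ephrins of both classes, was 17.3, 6.48 and 8.39 FPKM in WT, 15.2, 19.3 and 17.9 FPKM in Lmo2-/- and 10.1, 12.9 and 6.61 FPKM in Tal1-/-. Efna5, an A-class ephrin studied in axon guidance, was 13.3, 4.53 and 6.80 FPKM in WT, 9.76, 16.6 and 10.8 FPKM in Lmo2-/- and 9.71, 11.6 and 4.75 FPKM in Tal1-/-. Epha1 was 3.18, 1.68 and 2.65 FPKM in WT, 0.147, 1.71 and 0.727 FPKM in Lmo2-/- and 3.36, 2.88 and 1.55 FPKM in Tal1-/-, so that 2 of the Lmo2-/- libraries were below every other Flk-1+ library. Epha1 overlaps Zyx and the antisense gene 2010310C07Rik on the other strand, and the strand setting of the counting is not given in the sources used here. Epha2, a receptor of A-class ephrins, stayed between 0.260 and 3.51 FPKM in all 9 Flk-1+ libraries.

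**Figure D3:**
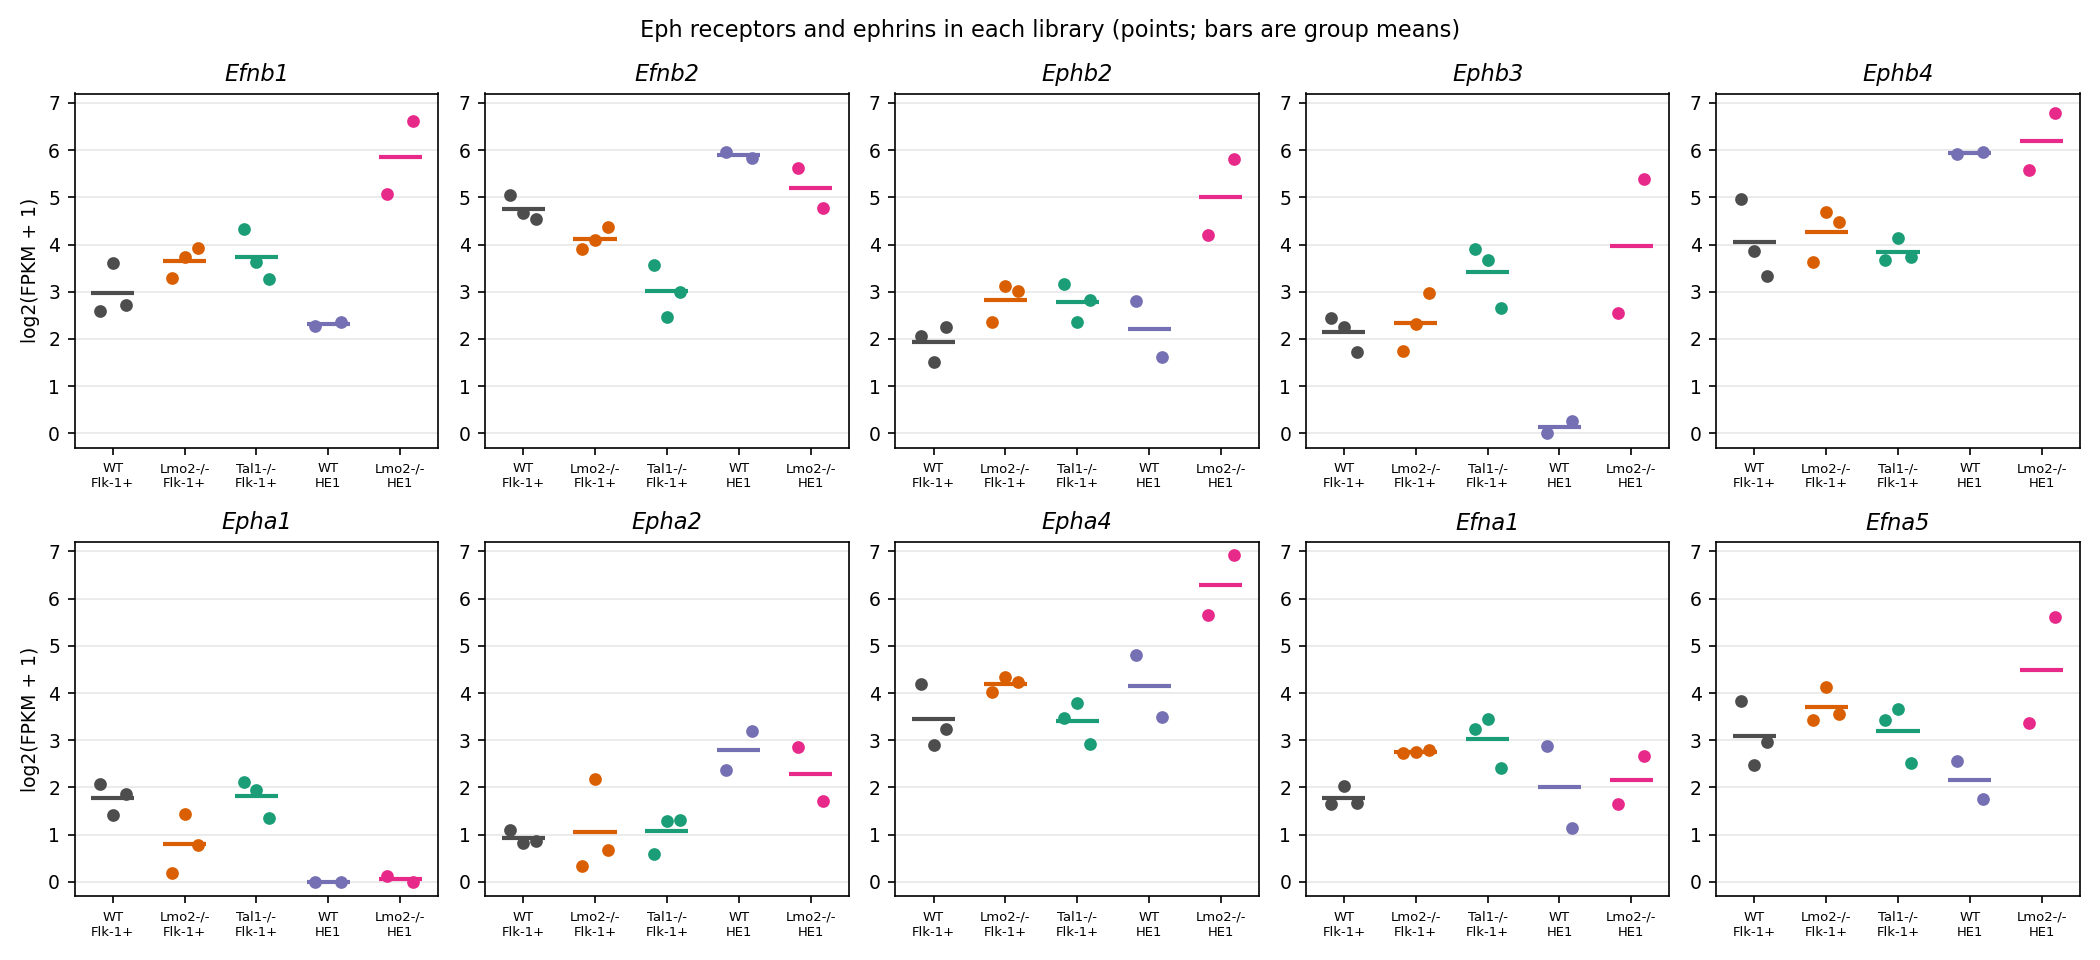
log2(FPKM + 1) of the 10 genes in each of the 13 libraries (points) with the mean of each group (bars), for 3 Flk-1+ and 2 HE1 groups. Efnb2 steps down from WT to Lmo2-/- to Tal1-/- Flk-1+ cells, Ephb4 is higher in HE1 than in all Flk-1+ libraries, and Efnb1, Ephb2, Ephb3, Epha4 and Efna5 are higher in both Lmo2-/- than in both WT HE1 libraries.

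Efnb1, Ephb2 and Ephb3 rose in Lmo2-/- HE1, 3 of 10 called and all higher, against 3.01% of all genes called and 2.15% called higher. Efnb1 was 3.82 and 4.16 FPKM in WT HE1 and 32.6 and 97.9 FPKM in Lmo2-/- HE1 (log2 difference 3.53, SE 0.56, limma adjusted p = 0.00452). Ephb2 went from 6.0 and 2.06 FPKM to 17.5 and 55.1 FPKM (2.80, SE 0.61, limma adjusted p = 0.0215). Ephb3 was close to absent in WT HE1, listed at 0 and 0.194 FPKM, and stood at 4.86 and 40.9 FPKM in Lmo2-/- HE1 (3.84, SE 0.79, limma adjusted p = 0.0167). The exact permutation p of each was 0.333, the smallest that 2 against 2 libraries allow. In every case the higher Lmo2-/- value came from replicate 1, the library with the fewest genes above 0.

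Leaving out replicate 1 of Lmo2-/- HE1 kept the call of Efnb1 (2.75, limma adjusted p = 0.0387) and lost those of Ephb2 (2.0, limma adjusted p = 0.156) and Ephb3 (2.42, limma adjusted p = 0.108). Ephb2 also lost its call without WT HE1 replicate 0 or 1 (limma adjusted p = 0.0504 and 0.149), as did Ephb3 (0.105 and 0.0738), while Efnb1 stayed below 0.05 without any 1 of the 13 libraries. In such a fit a group left with 1 library is taken to vary like the others. With only the 4 HE1 libraries in the fit 0 genes of the whole table were called, and for Efnb1 the limma adjusted p was 0.349. With all 13 libraries in the fit and weighted by their scatter it was 0.058 for Efnb1, 0.164 for Ephb2 and 0.117 for Ephb3. Quantile normalization ended the call of Ephb2 (2.21, limma adjusted p = 0.0682), and adding 5 in place of 1 before the logarithm that of Ephb3 (2.06, limma adjusted p = 0.051). Rescaling to a common median gave 2.98 for Efnb1 (limma adjusted p = 0.00886). All 3 genes stayed higher in Lmo2-/- in each of the alternatives. As their libraries do not overlap, leaving out a library or changing the pseudocount could not have turned the direction.

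Epha4 and Efna5 were likewise higher in both Lmo2-/- HE1 libraries and did not pass. Epha4 was 26.9 and 10.2 FPKM in WT HE1 and 49.5 and 121 FPKM in Lmo2-/- HE1 (2.15, SE 0.57, limma adjusted p = 0.0517). Efna5 was 4.87 and 2.38 FPKM in WT and 9.32 and 47.6 FPKM in Lmo2-/- (2.33, SE 0.70, limma adjusted p = 0.0786). Both passed when replicate 0 of Lmo2-/- HE1 was left out, which leaves replicate 1 alone in its group (limma adjusted p = 0.0104 for Epha4 and 0.00448 for Efna5). Without replicate 1 the differences were 1.51 for Epha4 (limma adjusted p = 0.308) and 1.21 for Efna5 (limma adjusted p = 0.457). Efnb2 was the 1 gene lower in both Lmo2-/- libraries (-0.71, SE 0.44, limma adjusted p = 0.378), and its difference was -0.29 (limma adjusted p = 0.880) without replicate 1. In all, 5 of the 10 were higher and 1 was lower without overlap, against 25.9% higher and 13.8% lower of all genes tested (39.7% in all). The median log2 difference was 1.20 for the 10 genes and 0.15 for all genes tested.

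The other members overlapped between the genotypes in HE1. Efna1 was 6.34 and 1.22 FPKM in WT and 2.16 and 5.37 FPKM in Lmo2-/-. Epha2 was 4.17 and 8.19 FPKM in WT and 6.24 and 2.27 FPKM in Lmo2-/-. Epha1 was listed at 0 in both WT libraries and at 0.0865 and 0 FPKM in Lmo2-/-.

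Markers of other cells moved with the same libraries. The fibroblast list summed to 29.2 to 35.7 FPKM in WT HE1 and 174 to 755 FPKM in Lmo2-/- HE1, with Thy1 at 0 in both genotypes and Col3a1 at 0 in 1 WT library. The smooth muscle list summed to 169 to 216 FPKM in WT and 323 to 840 FPKM in Lmo2-/-, of which Acta2 made up most, with means of 139.6 and 539.4 FPKM. Tagln had means of 52.1 and 41.6 FPKM, Cnn1 of 0.138 and 0.427 FPKM and Myh11 of 0.474 and 0.187 FPKM. Cnn1 was at 0 in 1 library of each genotype and Myh11 in 1 of Lmo2-/-. The epithelial and endodermal list (Epcam, Cdh1, Foxa2, Krt8 and Krt18) summed to 10.9 to 18.5 FPKM in WT and 52.1 to 165 FPKM in Lmo2-/-, with Epcam at 0 in all HE1 libraries and Cdh1 and Foxa2 at 0 in 1 library of each genotype. All 4 pluripotency genes were listed at 0 in every HE1 library. By the study's methods, ES cells were kept on embryonic fibroblasts but were passaged without them ahead of differentiation. HE1 was sorted as Tie2+ Kit+ CD41- cells from a culture begun with isolated Flk-1+ cells, and the purity of these libraries was not assessed here. The part of other cells, and of the low number of genes above 0 in replicate 1, in the higher Efnb1, Ephb2 and Ephb3 was not tested.

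**Figure D4:**
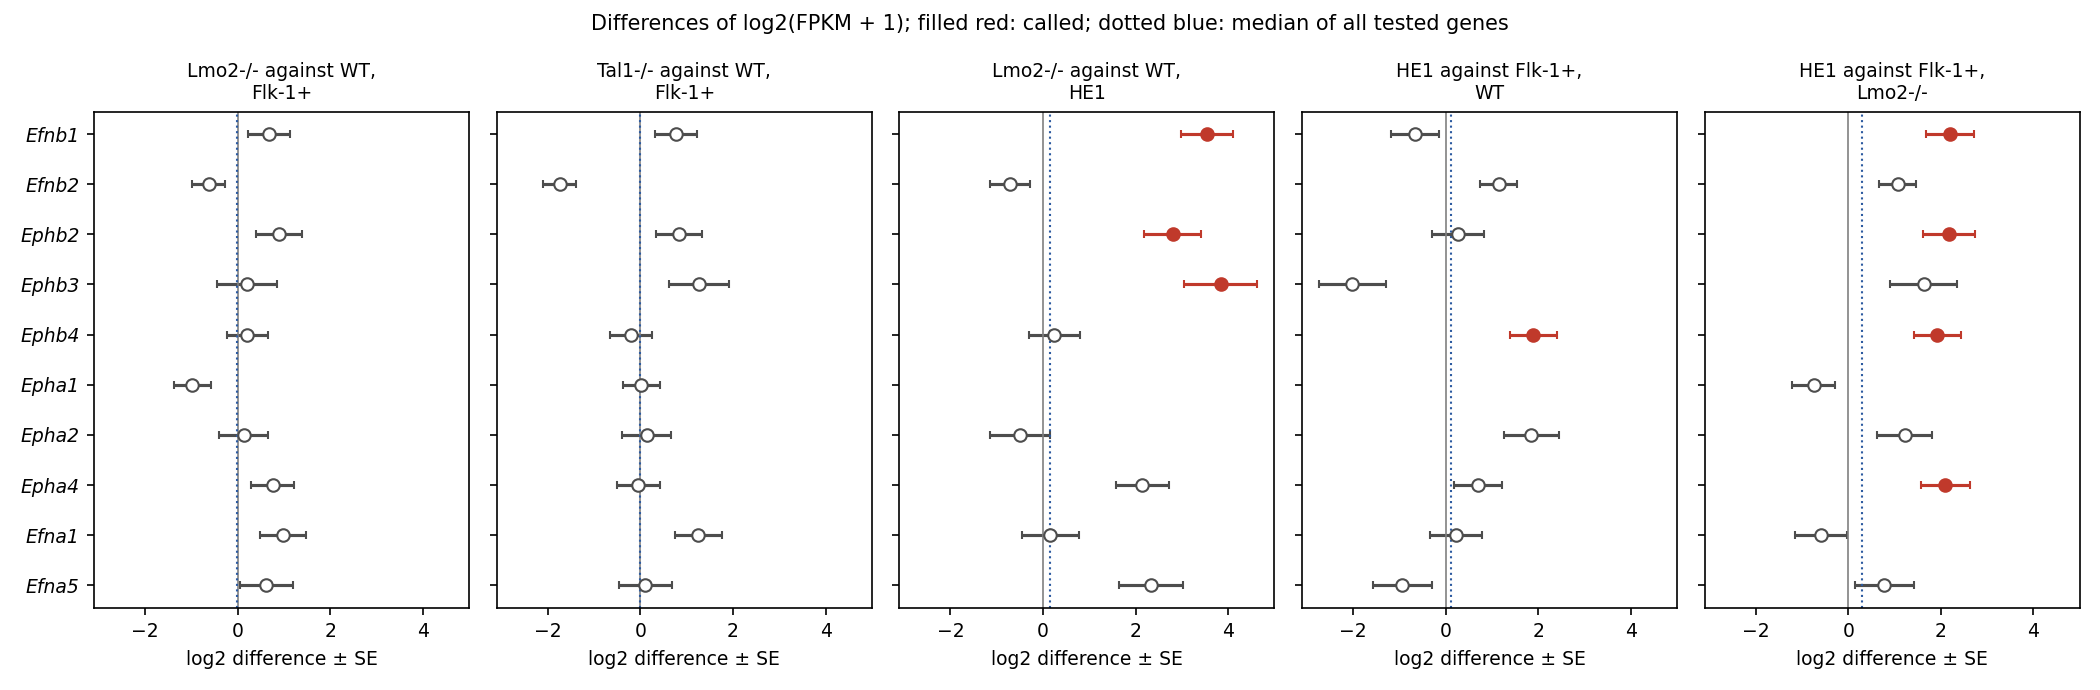
Difference of log2(FPKM + 1) with its SE for each of the 10 genes in 5 comparisons; filled red points were called, open points were not, and the dotted line is the median of all genes tested. Epha1 is left out where both libraries of a group are at 0. Of the genes shown, Efnb1, Ephb2 and Ephb3 are called between the genotypes in HE1 and 0 between the genotypes in Flk-1+ cells.

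From Flk-1+ cells to HE1, which asks what changes as endothelium forms, Ephb4 rose in WT by 1.89 on the log2 scale (SE 0.51; limma adjusted p = 0.0324; exact permutation p = 0.2, smallest possible 0.1). It was the 1 of 10 called, against 6.98% of all genes (6.04% higher). Its call was lost without WT Flk-1+ replicate 1 or 2 (limma adjusted p = 0.106 and 0.119), without WT HE1 replicate 0 or 1 (0.172 and 0.149), and after rescaling to a common median (1.41, limma adjusted p = 0.0624). The rise of Efnb2 was 1.15 (SE 0.40, limma adjusted p = 0.0919), and that of Epha2, from 0.772 to 1.14 FPKM up to 4.17 and 8.19 FPKM, was 1.85 (SE 0.59, limma adjusted p = 0.0697), neither of which passed. Epha1 was listed at 0 in both WT HE1 libraries, and passed at a limma adjusted p of 0.0263 without reaching the level criterion, as did 9.74% of all genes without that criterion. Without WT Flk-1+ replicate 0 or 2, or either WT HE1 library, it no longer passed (limma adjusted p from 0.0586 to 0.148). Ephb3 (-2.01, SE 0.72, limma adjusted p = 0.104) and Efnb1 (-0.66, SE 0.51, limma adjusted p = 0.476) were lower in both WT HE1 libraries than in any WT Flk-1+ library. Under the level criterion, Ephb3 passed in a fit of these libraries alone (limma adjusted p = 0.0363), after rescaling to a common median (0.0458) and with libraries weighted by scatter (0.035). It also passed with 0.1 added in place of 1 (0.0113), but not in the 6 other alternatives of processing. Epha2 passed with 5 added (0.0475) and with the weights (0.0172), and Efnb2 with the weights (0.0179). Over the alternatives of processing the rise of Efnb2 ran from 0.65 to 1.26. In all, 3 genes were higher and 3 lower without overlap, against 44.9% of all genes (27.6% higher and 17.2% lower), and the median log2 difference was 0.25 for the 10 and 0.11 for all genes.

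In the Lmo2-/- line 4 of the 10 genes were called from Flk-1+ cells to HE1, all higher, against 19.6% of all genes (17.2% higher). Of the genes called in the whole table, 2379 were higher and 328 lower, which became 609 and 764 after rescaling to a common median and 584 and 608 with quantile normalization. The median log2 difference of all genes was -0.34 after rescaling. Efnb1 rose by 2.19 (SE 0.51, limma adjusted p = 0.00795), Ephb2 by 2.18 (SE 0.56, limma adjusted p = 0.0129), Epha4 by 2.09 (SE 0.53, limma adjusted p = 0.0113) and Ephb4 by 1.92 (SE 0.51, limma adjusted p = 0.0149). Without replicate 1 of Lmo2-/- HE1 all 4 calls were lost (limma adjusted p from 0.0986 to 0.152), while Efnb2, at 1.07 (SE 0.40, limma adjusted p = 0.0650) with all libraries, passed without it (1.49, limma adjusted p = 0.0439). The call of Ephb4 was also lost without Lmo2-/- Flk-1+ replicate 0 (limma adjusted p = 0.0544). Rescaling to a common median left 0 of the 10 called, at a limma adjusted p of 0.0933 for Efnb1. Over the alternatives of processing the difference of Efnb2 ran from 0.09 to 1.11. Efna1 was lower in both Lmo2-/- HE1 libraries than in any Lmo2-/- Flk-1+ library (-0.59, SE 0.56, limma adjusted p = 0.454), as was Epha1 (-0.75, SE 0.46, limma adjusted p = 0.243). The smooth muscle list, described above for HE1, summed to 0.502 to 9.02 FPKM in all Flk-1+ groups, so it too is higher in HE1 of both genotypes, and its part in the stage changes was not tested. Among the 10, 5 were higher and 2 lower without overlap (47.0% of all genes; 31.9% higher and 15.1% lower), with a median log2 difference of 1.42 against 0.30 for all genes.

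An interaction term asked whether these stage changes differed between WT and Lmo2-/-. It called 0 of the 10 genes, against 0.348% of all genes; over all genes tested, 1672 (12.1%) had an unadjusted limma p below 0.05. The estimates furthest from 0 were those of Ephb3 (3.64, SE 1.02, limma adjusted p = 0.153) and Efnb1 (2.85, SE 0.72, limma adjusted p = 0.119), and that of Ephb4 was 0.03 (SE 0.72, limma adjusted p = 0.989). The median estimate was 1.21 for the 10 and 0.23 for all genes. Without replicate 0 of Lmo2-/- HE1, which leaves replicate 1, 4 were called: Ephb3 (limma adjusted p = 0.00475), Efnb1 (0.00855), Ephb2 (0.0391) and Efna5 (0.0413). Without replicate 1 in place of it 0 were called, and the estimates were 2.22 for Ephb3 (limma adjusted p = 0.354), 2.08 for Efnb1 (0.285), 1.11 for Ephb2 (0.682) and 0.59 for Efna5 (0.864).

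Of the other 12 genes of the family, 6 passed the filter on low values (Epha7, Ephb6, Efna2, Efna3, Efna4 and Efnb3), and 0 were called in any of the comparisons or the interaction. Epha3 and Epha6 were listed at 0 in every library. Efnb3, a B-class ephrin known from the nervous system, was the only one of them with a group mean above 10 FPKM, at 8.51, 11.8 and 12.5 FPKM in Lmo2-/- and 8.39, 9.54 and 12.3 FPKM in Tal1-/- Flk-1+ cells, beside 6.86, 8.20 and 4.38 FPKM in WT. Efna2 was listed at 0 in both WT HE1 libraries against 1.77 to 3.76 FPKM in WT Flk-1+ cells, and passed at a limma adjusted p of 0.0436 without reaching the level criterion.

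A list of 24 genes that act in Eph signalling, among them adaptors, guanine nucleotide exchange factors, kinases and proteases, had 23 tested. In Flk-1+ cells 0 of them passed in any comparison. Between the genotypes in HE1 1 of 23 was called (3.01% of all genes), Sipa1l1, a GTPase-activating protein for Rap, which rose from 8.0 and 11.4 FPKM to 25.4 and 48.7 FPKM (1.78, SE 0.41, limma adjusted p = 0.0283). Its call was lost without replicate 1 of Lmo2-/- HE1 (1.32, limma adjusted p = 0.161). From Flk-1+ cells to HE1 5 of 23 were called in WT (6.98% of all genes) and 9 of 23 in Lmo2-/- (19.6% of all genes), all higher, and 4 of 23 in Lmo2-/- without that library. In WT they were Vav3, Tiam1, Rasa1, the protease Adam10, which cleaves ephrins, and the scaffold Sdcbp. Adam10 rose by 1.63 (SE 0.32, limma adjusted p = 0.00597) in WT and by 2.29 (SE 0.32, limma adjusted p = 0.000427) in Lmo2-/-. The medians of the 23 were 0.47 in WT and 1.17 in Lmo2-/-, against 0.11 and 0.30 for all genes.

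The arterial and venous lists give the setting of the Efnb2 and Ephb4 balance. Of 12 arterial genes 10 were tested, and between WT and Lmo2-/- HE1 Nrp1 and Unc5b rose while Gja4 fell (3.01% of all genes were called). Of the 10, 3 were higher and 4 lower without overlap, against 25.9% higher and 13.8% lower of all genes tested (39.7% in all). The median log2 difference was -0.10 for the 10 and 0.15 for all genes. Nrp1, a co-receptor of VEGF, differed by 2.01 (SE 0.38, limma adjusted p = 0.0112) and Unc5b, a netrin receptor, by 2.05 (SE 0.39, limma adjusted p = 0.0118). Gja4, a connexin of arterial endothelium, was 8.49 and 17.2 FPKM in WT HE1 and listed at 0 in both Lmo2-/- HE1 libraries (limma adjusted p = 0.00218). Without replicate 1 of Lmo2-/- HE1 the call of Gja4 held (limma adjusted p = 0.0141) and those of Nrp1 (0.0604) and Unc5b (0.0611) were lost. The other arterial genes lower in both Lmo2-/- libraries did not pass: the SOX factor Sox17 differed by -2.52 (limma adjusted p = 0.0552), the receptor Notch4 by -2.10 (0.0908) and the Notch target Hey1 by -1.60 (0.173). Of 5 venous genes, all tested, 0 were called in that comparison. Emcn, an endothelial sialomucin, was 7.84 and 8.02 FPKM in WT HE1 and listed at 0 in the Lmo2-/- HE1 libraries (limma adjusted p = 0.00069), under the level criterion, and it also passed in the interaction (limma adjusted p = 0.0105). At the Flk-1+ stage 0 of either list passed between genotypes. From Flk-1+ cells to HE1 4 of 10 arterial and 2 of 5 venous genes were called in WT (6.98% of all genes), and 4 of 10 and 4 of 5 in Lmo2-/- (19.6% of all genes), all higher. Without replicate 1 of Lmo2-/- HE1 it was 2 of 10 and 2 of 5 in Lmo2-/-.

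Over the 13 libraries Efnb2 and Ephb4 had a Pearson r of 0.664 on log2(FPKM + 1), and 0.753 without replicate 1 of Lmo2-/- HE1. The libraries share stage and genotype, so this describes these libraries and is given without a test. Among 7575 genes with a mean FPKM of at least 5, the 5 most like Efnb2 were Hapln1 (r = 0.926), Tnfaip2 (0.926), Tagln (0.924), Iqgap2 (0.919) and Bmp2 (0.918), and Ephb4 ranked 724. The 5 most like Ephb4 were Notch1 (r = 0.974), Serpinh1 (0.973), Zfhx2 (0.972), Mfn2 (0.970) and Coro1c (0.967), and Efnb2 ranked 2459. Hapln1 had group means of 6.97, 4.78 and 0.175 FPKM in Flk-1+ cells of WT, Lmo2-/- and Tal1-/- and of 127 and 48.3 FPKM in WT and Lmo2-/- HE1, the same order of groups as Efnb2. The group means of Notch1, in the same sequence, were 35.9, 34.4, 20.5, 116 and 211 FPKM.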

How the data were processed

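RNAseq libraries (TruSeq Stranded mRNA, paired ends) came from Flk-1+ cells, with 3 per genotype, and from HE1, with 2 per genotype and none of Tal1-/-. The authors mapped reads to GRCm38/mm10 with TopHat2 2.0.9, assembled transcripts with Cufflinks 2.0.0 (quartile normalisation, effective length correction), merged them, and deposited FPKM per library; the deposited FPKM per condition pool the replicates and served only to find gene names. Their comparison table holds Cuffdiff 2.0.1 p-values and fold changes and was not used. Every per-sample column of the FPKM table was used (0 left out). GEO holds 1 record per group, the libraries being columns numbered from 0, which the paper calls independent, so that p-values measure the spread between libraries of 1 line per genotype. Fragment counts are not given, so depth is unknown; FPKM steps of low genes gave relative depth. ChIP and DNase data were not analysed here.

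Genes with a locus over 200 bp that reached an FPKM of 1 in 2 or more libraries were tested with limma 3.58.1 in R 4.3.3 (mean-variance trend, group as the factor, log2(FPKM + 1), two-sided). The 6 comparisons and the interaction were adjusted by Benjamini-Hochberg. Single values had an exact permutation test over libraries, two-sided. Other steps used Python 3.11.15, pandas 2.3.3, numpy 2.4.6, matplotlib 3.10.9 and scipy 1.17.1. The fit was tested on simulated data. All 10 members were named, with a difference given where libraries did not overlap or the adjusted p was below 0.05; genes most like Efnb2 and Ephb4 were ranked by Pearson r. The members and lists were chosen with earlier results of these data known, and the class shares after seeing the data. Alternatives were other pseudocounts (0.1 and 5), filters, quantile normalization, a common median, separate fits, no trend, array weights, no level criterion, single libraries left out, and the replicate number as a block. Positions are from GENCODE M21, upstream sequences from RefSeq (GRCm38.p6).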

Additional observations from a re-analysis of the deposited data

Results flagged for a closer look

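The HE1 libraries of Efnb1 lay on opposite sides of the Flk-1+ libraries in WT and Lmo2-/-. In WT both HE1 libraries (3.82 and 4.16 FPKM) were below all Flk-1+ libraries (5.04 to 11.2 FPKM), and in Lmo2-/- both HE1 libraries (32.6 and 97.9 FPKM) were above all Flk-1+ libraries (8.79 to 14.3 FPKM). The WT difference of -0.66 did not pass (limma adjusted p = 0.476) and was -0.34 without WT Flk-1+ replicate 1, and the Lmo2-/- difference of 2.19 passed (limma adjusted p = 0.00795), though not without Lmo2-/- HE1 replicate 1 (1.42, limma adjusted p = 0.0986). The interaction was 2.85 on the log2 scale and did not pass (limma adjusted p = 0.119). It was 3.63 (limma adjusted p = 0.00855) without replicate 0 and 2.08 (limma adjusted p = 0.285) without replicate 1 of Lmo2-/- HE1.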

How the results depend on the processing

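In 641 alternative fits of the 28 gene and comparison pairs that did not overlap or passed, 575 kept direction and side of the threshold, 48 no longer passed, 18 newly passed and 0 turned direction. Where libraries do not overlap, leaving out a library or changing the pseudocount cannot turn the direction. For those alternatives the 0 was fixed by the choice of pairs. At the Flk-1+ stage 0 members were called in every comparison under every alternative. There the main fit did not call the targeted genes Lmo2 and Tal1 either. Between the genotypes in HE1 0 of the 3 calls were left with separate fits or array weights (1 to 5 with single libraries left out), and over all genes the calls ran from 0 (separate fits) to 2182 (without replicate 0 of Lmo2-/- HE1), against 415. Higher and lower calls over all genes were 297 and 118, and 115 and 115 with a common median or 95 and 80 with quantile normalization; for the WT stage change they were 834 and 130, and 419 and 316 or 440 and 281. The 1 call of the WT stage change became 0 with no filter on low values, quantile normalization, a common median, separate fits or the replicate block, and 2 with array weights or no level criterion (0 to 1 with single libraries left out). The 4 calls of the Lmo2-/- stage change became 0 with quantile normalization, a common median or array weights and 1 with separate fits (1 to 6 with single libraries left out). The interaction, with 0 calls, had 0 to 4 with single libraries left out. Separate fits hold fewer libraries; for the other settings the cause was not tested.

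The balance kept its direction in 64 of 70 alternative values. Its interaction of -0.11 became 0.03 with quantile normalization, 0.20 without WT Flk-1+ replicate 0, 0.09 without Lmo2-/- Flk-1+ replicate 0 and 0.90 without Lmo2-/- HE1 replicate 1 (range -1.13 to 0.90). With single libraries left out, the balance ran from -1.97 to 0.07 between the genotypes in HE1 and from -1.87 to 0.17 for the Lmo2-/- stage change, positive only without Lmo2-/- HE1 replicate 1. The share of Efnb2 in the Lmo2-/- stage change, 4.82 percentage points, was -2.24 over the 10 members alone. With single libraries left out it ran from -11.4 (without Lmo2-/- HE1 replicate 0) to 21.1 (without Lmo2-/- HE1 replicate 1). That of Ephb4, 1.85, was -1.34 with quantile normalization, -2.49 over the members alone and -0.123 without Lmo2-/- Flk-1+ replicate 0 (-0.123 to 3.64). Between the genotypes in HE1 the shares ran from -66.5 to -34.0 (Efnb2) and from -39.5 to -26.2 (Ephb4).

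Replicate numbers are not said to pair libraries. In no comparison did every same-numbered pair correlate above 0.1 in its deviations from the group means (mean correlation from -0.125 to 0.116). The highest mean was that of WT with Tal1-/- Flk-1+ cells, whose pairs ran from 0.0741 to 0.169, against a mean of -0.058 for other numbers. With the replicate block, Ephb4 (1.78, limma adjusted p = 0.0721) and Epha1 (limma adjusted p = 0.0538) no longer passed in the WT stage change, and the block changed no other call of a member. Every HE1 value is limited by having 2 libraries per genotype, and by the few genes above 0 in replicate 1 of Lmo2-/- HE1. The fragments counted per library are unknown.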
